A study of Mus musculus with 4 samples.

Results

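Cardiac capillary endothelial lipid handling genes were followed here across infarcted mouse hearts, from WT animals and from animals lacking endothelial S1pr1 (KO). The group holds 8 genes, Fabp4, Cd36, Gpihbp1, Aqp1, Meox2, Tcf15, Rgcc and Car4, chosen as a named list with no threshold on a measured value, out of 20659 mouse genes with a probe on the array. All 8 had a probe, and each was well above background on all 4 arrays. The hearts, all from males, were taken 5 days after the left anterior descending coronary artery had been tied off to cause an infarct, with 2 arrays per genotype. WT mice were set against VE-Cad-Cre-S1pr1 fl/fl mice, in which the promoter of VE-cadherin, an endothelial adhesion gene, drives the Cre that deletes the floxed receptor. Ages, strain background, whether the WT mice carried Cre or floxed alleles, and whether 1 array is 1 heart are not given in the sources used here, so p-values reflect only how far these arrays differ, which may be technical.

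The heart muscle burns mostly fatty acids, and its capillaries bring these in. Lipoproteins are held at the vessel wall, where lipoprotein lipase frees their fatty acids, which then cross the endothelial cell with the help of a membrane transporter and intracellular binding proteins. The transcription factors Meox2 and Tcf15 form a pair that is enriched in heart capillaries and is known to promote endothelial fatty acid uptake there. S1pr1 is the main endothelial receptor for the blood lipid sphingosine 1-phosphate, and it steadies the capillary barrier.

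Each level is a log2 signal minus the 75th percentile of all probes on that array, and a difference is the KO mean minus the WT mean of these log2 levels. WT replicates 1 and 3 and KO replicates 3 and 4 are drawn as WT1, WT3, KO3 and KO4 in the plots. All 4 arrays shared 1 slide and 1 scan, with WT at positions 4 and 3 and KO at positions 2 and 1, so slide position and genotype cannot be told apart. Between 54.3% (WT replicate 1) and 73.4% (KO replicate 3) of probes were well above background. Before the log2 step, negative control spots had an SD of 15.7 and 5.1 on WT replicates 1 and 3. On KO replicates 3 and 4 it was 2.1 and 1.8. The lowest signal flagged well above background was 51.6 and 9.5 in WT and 7.5 and 6.8 in KO, so the noise floor was highest on WT replicate 1. S1pr1, the deleted gene, stood at 0.43 and 0.95 in WT but at -2.69 and -2.30 in KO, a difference of -3.19 (SE 0.38). Its adjusted p was 0.740 in limma, so the test did not call even the deleted gene. The place of its probe relative to the deleted part was not determined. The endothelial genes Cdh5 and Pecam1 were well above background on all 4 arrays and differed by 0.30 (SE 0.33) and 0.33 (SE 0.31) in limma. In whole-heart RNA, fewer cells of a type and less RNA per cell cannot be told apart.

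All 8 genes had a higher mean in KO, as 54.8% of the 22925 tested features did, and none passed the test. The differences ran from 0.44 (Rgcc) to 1.84 (Tcf15), with a median of 0.97 against 0.07 over all features. Ventricular cardiomyocyte markers had a median of 2.34 (16 of 16 higher) and pericyte markers 1.44 (7 of 8). Pan-endothelial markers had 0.31 (19 of 20 higher) and pan-macrophage markers -0.69 (0 of 16). Without WT replicate 1 the members' median was 0.22 and 5 of 8 members had a higher mean in KO, where 57.5% of all features did. Without KO replicate 4 the median was 0.60 and 7 of 8 were higher. It rose to 1.42 without WT replicate 3 and to 1.31 without KO replicate 3, with 8 of 8 members higher in each. With limma, adjusted over all features, 0 of 8 members were called, and the background was 0%. Their adjusted p lay between 0.740 and 0.823 in limma. At an unadjusted p under 0.05, 0 of 8 passed, where 1.41% of all features passed with KO higher. Each 95% interval of this main fit included 0. The next values are from other fits on all 4 arrays. With the trend and robust options of limma, Meox2 had an unadjusted p of 0.043 (95% interval 0.05 to 1.96). It was 0.046 in limma when probes had to be well above background on all 4 arrays, and 0.033 with normexp background correction. The adjusted count was 0 in each of these. WT replicate 1 was the lowest array for 8 of 8 members, and for 41.7% of all features. Both KO arrays lay above both WT arrays for Meox2, Tcf15 and Aqp1, which is 3 of 8 members, while 18.3% of all features separated in this direction. For the other 5 the genotypes overlapped, with WT replicate 3 above KO replicate 3.

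**Figure D1:**
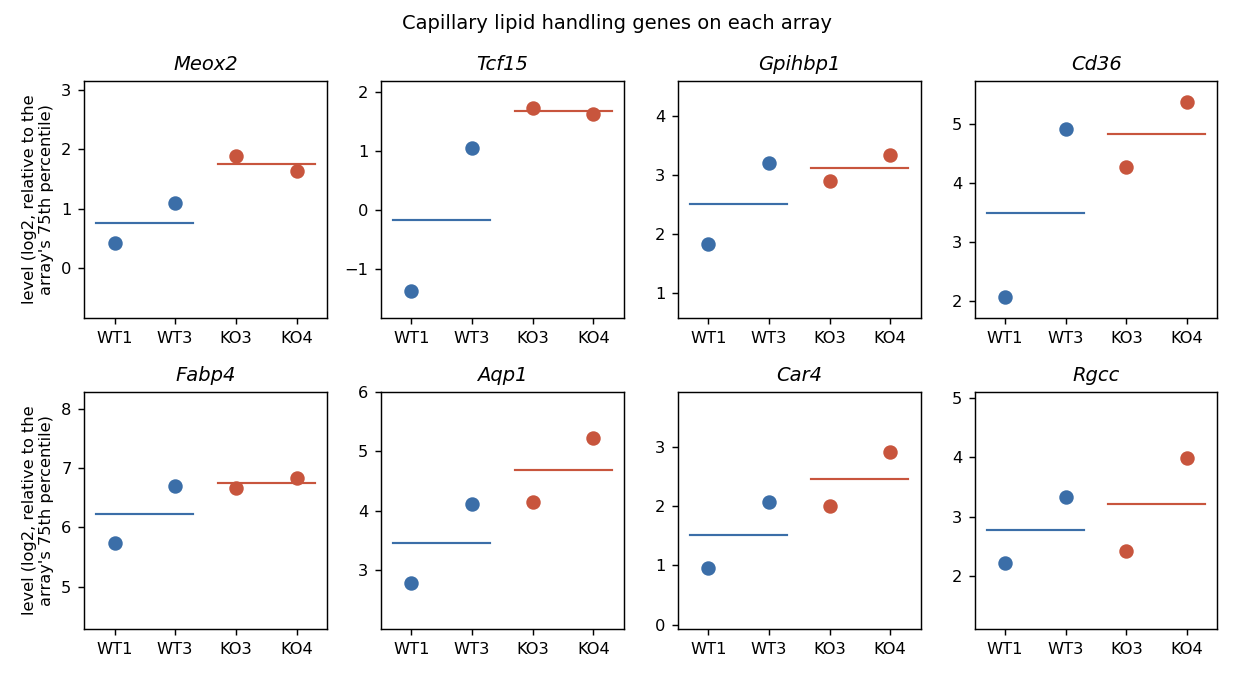
Level of each gene (log2, relative to the array's 75th percentile; panels have equal height but different ranges) on the 4 arrays, WT in blue and KO in red, with points for arrays and lines for the mean of 2. WT1 is the lowest point in all 8 panels, and both red points lie above both blue points for Meox2, Tcf15 and, by 0.04, Aqp1.

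The pair of transcription factors separated the genotypes most clearly among the members. Meox2, a homeobox factor, stood at 0.42 and 1.09 on WT replicates 1 and 3 and at 1.89 and 1.63 on KO replicates 3 and 4. It averaged 0.75 ± 0.48 over WT arrays and 1.76 ± 0.18 over KO arrays (SD, n = 2 each). The difference was 1.003 (SE 0.39, 95% interval -0.04 to 2.05), or 2.004-fold, with an adjusted p of 0.740 in limma. Both KO arrays were above both WT arrays, with a gap of 0.54 that is narrower than the 0.67 between the WT arrays. Tcf15, a basic helix-loop-helix factor, stood at -1.37 and 1.05 in WT and at 1.72 and 1.63 in KO. Its means were -0.16 ± 1.71 and 1.68 ± 0.07 (SD, n = 2 each). The KO arrays agreed to within 0.10, whereas the WT arrays were 2.42 apart, so most of the Tcf15 difference of 1.84 (SE 0.87, 95% interval -0.51 to 4.18; adjusted p = 0.740 in limma) rested on WT replicate 1. Without that array Tcf15 differed by 0.63 and Meox2 by 0.67, both still higher in KO. These were also the members that stood furthest above WT replicate 3 on KO replicate 3, by 0.80 for Meox2 and 0.67 for Tcf15.

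Promoter windows were available for 5 members, from RefSeq on GRCm38.p6, and not for Tcf15, Fabp4 and Gpihbp1. Of the 5 windows, 3 are printed. Meox2 is the transcription factor with a window, and Aqp1 is the other separated gene with one. Cd36 is a transporter that the Meox2 and Tcf15 pair is known to promote. Each printed window shows the 250 bases before an annotated start, 5′ to 3′ on the gene's strand. Capitals mark CANNTG, the E-box read by helix-loop-helix factors, and AGGTCA, a half-site of nuclear receptors such as the PPAR family, on either strand; no matches overlapped. Meox2 is at chr12:37108290-37108539 (plus strand), Cd36 at chr5:17835897-17836146 (minus strand) and Aqp1 at chr6:55336049-55336298 (plus strand). The Cd36 gene extends further upstream than this window, which precedes the start of 1 of its transcripts.
Meox2: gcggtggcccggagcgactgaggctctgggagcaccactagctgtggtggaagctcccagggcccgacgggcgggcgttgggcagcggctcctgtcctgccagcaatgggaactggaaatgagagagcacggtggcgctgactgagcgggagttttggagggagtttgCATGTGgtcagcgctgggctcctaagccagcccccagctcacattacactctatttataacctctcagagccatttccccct
Cd36: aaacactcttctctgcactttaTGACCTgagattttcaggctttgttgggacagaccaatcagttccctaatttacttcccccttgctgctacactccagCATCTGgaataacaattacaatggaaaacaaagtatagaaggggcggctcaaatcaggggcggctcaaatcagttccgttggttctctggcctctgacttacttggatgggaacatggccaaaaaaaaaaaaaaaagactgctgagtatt
Aqp1: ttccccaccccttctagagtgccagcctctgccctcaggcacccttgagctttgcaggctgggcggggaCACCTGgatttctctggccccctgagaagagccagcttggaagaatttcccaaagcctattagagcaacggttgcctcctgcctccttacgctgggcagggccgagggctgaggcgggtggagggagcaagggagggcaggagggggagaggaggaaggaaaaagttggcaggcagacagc
Each of these windows held 1 E-box, and the windows of Car4 and Rgcc held 0, whereas 66.2% of all 32851 RefSeq windows of this length held at least 1. The nuclear receptor half-site was found in Cd36 alone among the 5, and in 14% of all windows. TAATTA, a core read by many homeobox factors, was in none of the 5 and in 4.84% of all windows. A match is a string of letters and not a measured binding site.

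The genes that capture and carry fatty acids overlapped between genotypes. Gpihbp1, the capillary protein that anchors lipoprotein lipase at the vessel lumen, stood at 1.83 and 3.20 in WT and at 2.89 and 3.33 in KO. WT replicate 1 was the low array, and the other 3 lay within 0.44 of each other. Its difference was 0.60 (SE 0.57, 95% interval -0.94 to 2.14), with an adjusted p of 0.746 in limma. Cd36, a fatty acid transporter of endothelium, cardiomyocytes, macrophages and platelets, stood at 2.07 and 4.91 in WT and at 4.27 and 5.36 in KO. WT replicate 3 was 7.15-fold above WT replicate 1, the widest gap between WT arrays among the members. The difference between genotypes was 1.32 (SE 1.07, 95% interval -1.56 to 4.20; adjusted p = 0.740 in limma), and KO replicate 3 was lower than WT replicate 3 by 0.64. Fabp4, a fatty acid binding protein of capillary endothelium that adipocytes and macrophages also make, stood at 5.74 and 6.69 in WT and at 6.67 and 6.83 in KO. Apart from WT replicate 1, its arrays lay close together. It differed by 0.54 (SE 0.45, 95% interval -0.66 to 1.74; adjusted p = 0.740 in limma). Without WT replicate 1 the differences were -0.10 for Cd36, -0.08 for Gpihbp1 and 0.06 for Fabp4.

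The remaining members mark capillary exchange and endothelial growth control. Aqp1, the water channel of capillaries and red cells, stood at 2.79 and 4.11 in WT and at 4.15 and 5.23 in KO. The groups did not overlap, but only 0.04 lay between WT replicate 3 and KO replicate 3. It differed by 1.24 (SE 0.65, 95% interval -0.51 to 2.99; adjusted p = 0.740 in limma), and by 0.58 without WT replicate 1 and 0.70 without KO replicate 4. Car4, a carbonic anhydrase held on the capillary surface, stood at 0.95 and 2.07 in WT and at 1.99 and 2.90 in KO. WT replicate 3 and KO replicate 3 were 0.07 apart. Car4 differed by 0.94 (SE 0.57, 95% interval -0.60 to 2.49; adjusted p = 0.740 in limma), and by 0.38 without WT replicate 1 and 0.49 without KO replicate 4. It was the only member with 2 probes. The dimmer one was not well above background on WT replicate 1, and it stood at -5.63 and -3.58 in WT and at -3.19 and -2.66 in KO, so there both KO arrays were above both WT arrays.

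Rgcc, a cell cycle regulator that is high in heart capillaries and is known to restrain endothelial growth, had the smallest difference. It stood at 2.22 and 3.32 in WT and at 2.43 and 3.997 in KO. Here the KO arrays were 1.57 apart, more than the WT arrays, and the array order alternated between genotypes. Rgcc differed by 0.44 (SE 0.72, 95% interval -1.48 to 2.37; adjusted p = 0.823 in limma), by -0.11 without WT replicate 1, and by -0.34 without KO replicate 4.

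**Figure D2:**
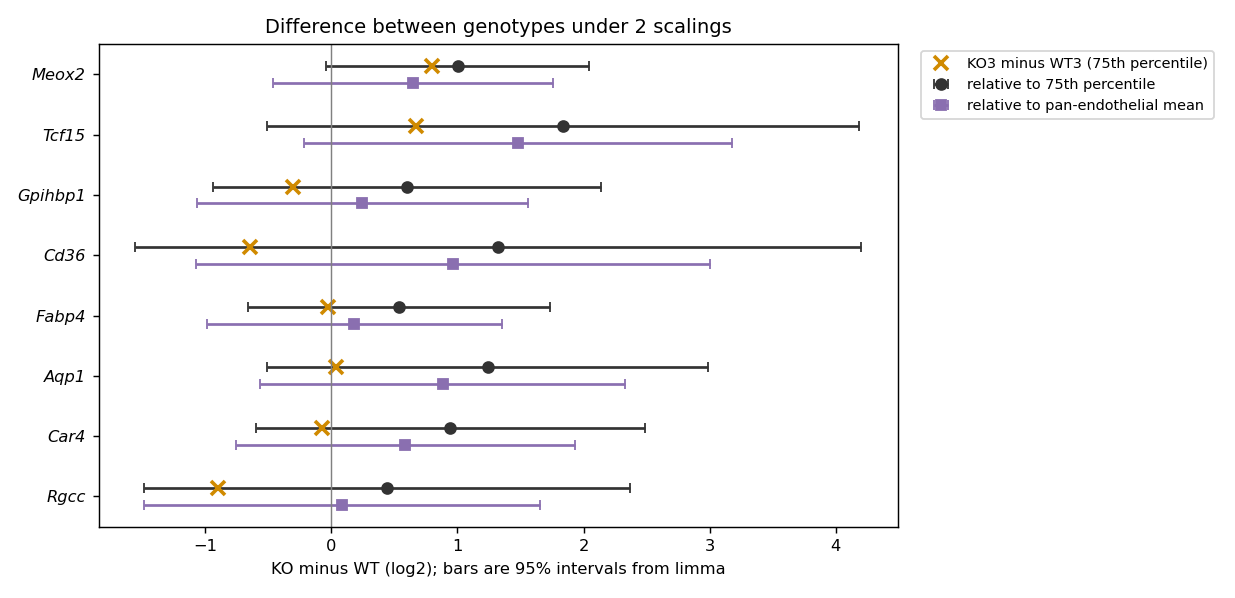
KO minus WT (log2) for each gene with its 95% interval from limma, relative to the 75th percentile of the array (black) and to the mean of pan-endothelial markers (purple); crosses give KO replicate 3 minus WT replicate 3. All intervals cross 0, and crosses lie clearly to the right of 0 for Meox2 (0.80) and Tcf15 (0.67).

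The members were then set against endothelial content. The list mean of 20 pan-endothelial markers was 1.25 and 1.52 in WT and 1.79 and 1.69 in KO, and 19 of the 20 had a higher mean in KO, with a median difference of 0.31. Both KO arrays lay above both WT arrays for 10 of the 20, where 18.3% of all features separated in this direction. With the pan-endothelial list mean subtracted on each array, all 8 members kept a higher mean in KO, by 0.09 (Rgcc) to 1.48 (Tcf15). Their median was then 0.62, against 1.99 for ventricular cardiomyocyte markers (16 of 16 higher). It was 0.60 for 11 further capillary genes (8 higher) and -1.05 for pan-macrophage markers (0 of 16 higher). On this scale 32.0% of all features had a higher mean in KO, and the median difference of all features was -0.28. Adjusted p-values for the members were then between 0.734 and 0.969 in limma. Taken alone, WT replicate 3 lay above the KO mean for Fabp4 (5.17 against 5.01) and Cd36 (3.39 against 3.07). It did so also for Gpihbp1 (1.68 against 1.37) and Rgcc (1.80 against 1.47), and lay below the KO mean for the other members. Meox2 stood at -0.83 and -0.43 in WT and at 0.09 and -0.06 in KO on this scale, and Tcf15 at -2.62 and -0.47 against -0.07 and -0.06. These 2 of 8 members separated the genotypes after the subtraction, while 4.68% of all features did so with KO higher. Aqp1 no longer did, since KO replicate 3 (2.36) lay below WT replicate 3 (2.59).

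The 8 genes followed 3 different array orders. Gpihbp1, Cd36, Fabp4, Car4 and Rgcc ran from WT replicate 1 through KO replicate 3 and WT replicate 3 to KO replicate 4, an order held by 22.3% of all features. The ventricular cardiomyocyte markers had the same order in their mean, 1.83 and 6.15 for WT and then 5.95 and 6.76 for KO, and all 16 were lowest on WT replicate 1. The means of the further capillary, arterial and endocardial markers had this order as well. Meox2 and Tcf15 ran from WT replicate 1 through WT replicate 3 and KO replicate 4 to KO replicate 3, as 2.37% of features did. The pan-endothelial mean and the pericyte mean (-0.34 and 1.35 in WT, 1.72 and 1.62 in KO) had this order too. Of the 8 pericyte markers, 5 had both KO arrays above both WT arrays, as 18.3% of all features did. Aqp1 alone ran from WT replicate 1 through WT replicate 3 and KO replicate 3 to KO replicate 4, an order held by 12.2%. The part that cardiomyocyte or vascular content plays in the members' values was not tested.

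Markers of other cells that make some of these proteins were measured beside them. The 16 tested pan-macrophage markers, relevant to Cd36 and Fabp4, were all lower in KO, with list means of 3.31 and 2.40 for WT and of 2.32 and 1.09 for KO. Their median difference of -0.69 was -0.23 without WT replicate 1, with 4 of 16 then higher, -0.23 without KO replicate 4, with 2 of 16 higher, and -1.40 and -1.39 without WT replicate 3 and KO replicate 3. Between the arrays numbered 3 it was 0.15. Erythroid markers, relevant to Aqp1, were lower in KO for 7 of 7 tested, at 3.04 and 1.76 against 1.23 and 1.41. Their median of -1.26 was -0.41 with WT replicate 1 left out and -2.05 with WT replicate 3 left out. Of 8 tested adipocyte markers, relevant to Fabp4, 6 were lower in KO, and the list mean was -0.57 and -3.16 for WT and -1.95 and -3.02 for KO. The adipocyte direction turned without WT replicate 1, where 7 of 8 were higher and the median was 0.76 in place of -1.07; it was -0.50 without KO replicate 4, -2.71 without WT replicate 3, and 1.14 between the arrays numbered 3. These 3 lists were highest on WT replicate 1, the array on which all members were lowest. Fibroblast markers differed little in their mean, at 4.04 and 4.09 against 4.38 and 3.56, and no marker in any of these lists was called (smallest adjusted p = 0.740 in limma).

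**Figure D3:**
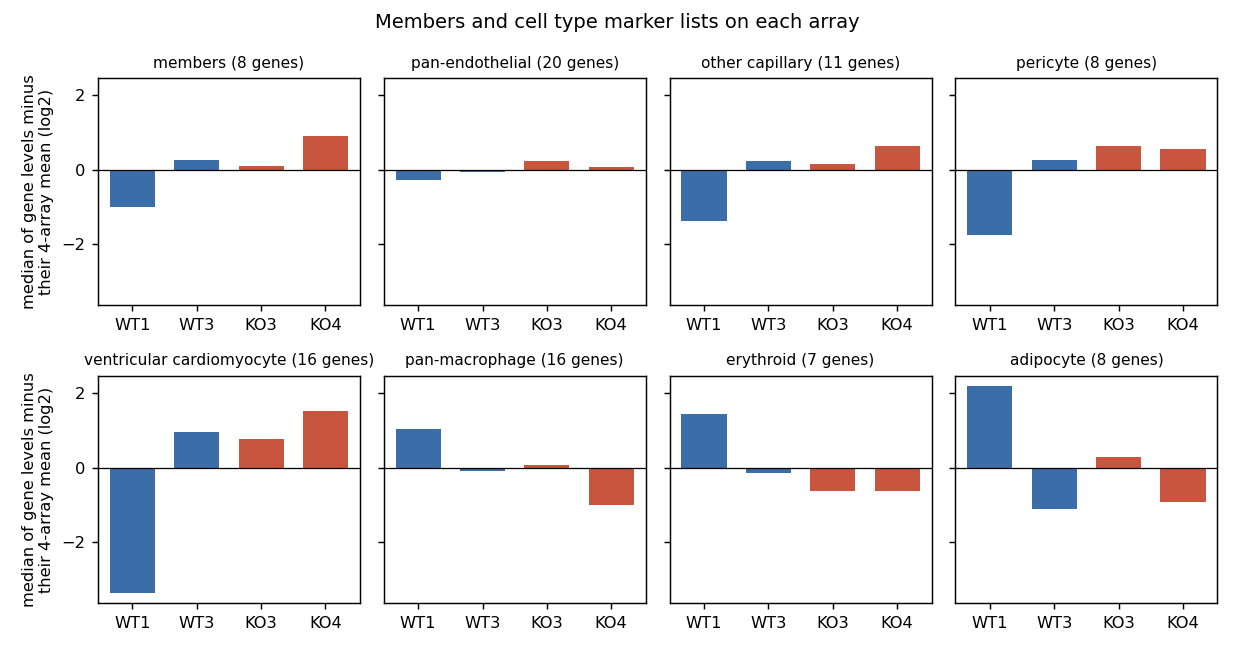
Median over the genes of each list of their level minus their own mean over 4 arrays (log2), WT in blue and KO in red. The members and the cardiomyocyte list are lowest on WT1 (-1.01 and -3.36), where the macrophage, erythroid and adipocyte lists are highest (1.03, 1.43 and 2.18).

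Markers of other vascular beds were counted in the same way. Of 8 arterial markers 6 had a higher mean in KO (median 0.24), of 6 venous markers 5 (median 0.22), of 6 lymphatic markers 5 (median 0.98) and of 5 endocardial markers 3 (median 0.13). Only 4 of the 6 lymphatic markers were well above background on all 4 arrays, and their differences ran from -1.47 (Pdpn) to 2.06 (Prox1) over the 6. The 11 further capillary genes, of which Lpl, Fabp5 and Kdr also stand in other lists, were higher in 9 cases with a median of 0.96, close to the 0.97 of the members. Without WT replicate 1, 6 of these 11 were higher and their median was 0.15; without WT replicate 3 it was 1.95. As with the members, the difference was smaller between the arrays numbered 3, with a median of -0.22 for the capillary genes and -0.05 for the members. Cyp4b1, an enzyme that oxidises fatty acids and foreign compounds, stood at -0.20 and 1.61 in WT and at 1.83 and 2.67 in KO. Plvap, the diaphragm protein of fenestrated and injured capillaries, stood at 1.11 and -0.04 in WT and at -0.27 and -0.69 in KO. Both KO arrays lay above both WT arrays for Cyp4b1 and below them for Plvap, neither called (adjusted p = 0.740 each in limma). These 2 genes were picked after their values were seen. Of the 11 further capillary genes, 3 separated with KO higher and 2 with KO lower, where 18.3% and 16.1% of all features did.

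Partner genes of endothelial lipid uptake differed in both directions. Of 36 listed genes, 34 were tested (Lipg and Slc27a6 were too dim), 23 with a higher and 11 with a lower mean in KO, and 0 were called in limma. The median difference was 0.53, against 0.07 for all features, and it was 0.11, 0.80 and 0.27 when WT replicate 1, WT replicate 3 or KO replicate 4 was left out. The counts were 19 and 15 with median scaling and also relative to the pan-endothelial mean. Genotypes did not overlap for 7 genes higher in KO and 5 lower, close to the shares of all features (18.3% and 16.1%). Notch1, whose signalling supports fatty acid transport in heart endothelium, stood at 2.45 and 3.54 in WT and at 4.11 and 5.23 in KO. With a difference of 1.68 (SE 0.61) it was the only partner with an unadjusted p under 0.05 (0.0464 in limma; adjusted 0.740). The caveolar protein gene Cavin2 and the VEGF co-receptor gene Nrp1 differed by 1.14 (SE 0.50) and 0.70 (SE 0.33), with both KO arrays above both WT arrays.

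The enzyme and its supply chain had wide WT spreads. Lpl, the lipoprotein lipase that Gpihbp1 anchors, is made mainly by cardiomyocytes in the heart and stood at 1.99 and 6.41 in WT and at 5.71 and 6.90 in KO. Fabp3, the binding protein of heart muscle, stood at 3.22 and 7.08 in WT and at 6.94 and 7.58 in KO. Vegfb, a muscle-derived growth factor linked to endothelial lipid uptake, stood at -1.65 and 2.02 against 1.92 and 3.12. For these 3 genes WT replicate 1 was the low array and KO replicate 3 lay below WT replicate 3, as for the cardiomyocyte markers. Flt1, the receptor for Vegfb, differed by 0.54 (SE 0.58), and the fatty acid transport protein gene Slc27a1 by 0.61 (SE 0.64).

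Fabp5, the second fatty acid binding protein of heart capillaries, differed in the opposite direction from Fabp4. It stood at 5.34 and 4.94 in WT and at 4.52 and 3.38 in KO, a difference of -1.19 (SE 0.51; adjusted p = 0.740 in limma). The fatty acid transport protein gene Slc27a3 stood at 1.04 and -0.18 in WT and at -0.42 and -2.17 in KO, and the endocytic receptor gene Lrp1 at 1.40 and 0.63 against 0.50 and 0.03. For these 3 genes both KO arrays lay below both WT arrays, as for 16.1% of all features. The order of arrays was that of the pan-macrophage mean and also of the smooth muscle marker mean. The share of all features with this order was not counted, and the cell source was not tested. Slc27a4 differed by -0.27 (SE 0.33). Angptl4, a secreted inhibitor of lipoprotein lipase, stood at 4.86 and 3.05 in WT and at 3.52 and -0.66 in KO; it differed by -2.53 (SE 1.57), with KO replicate 4 as the low array.

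**Figure D4:**
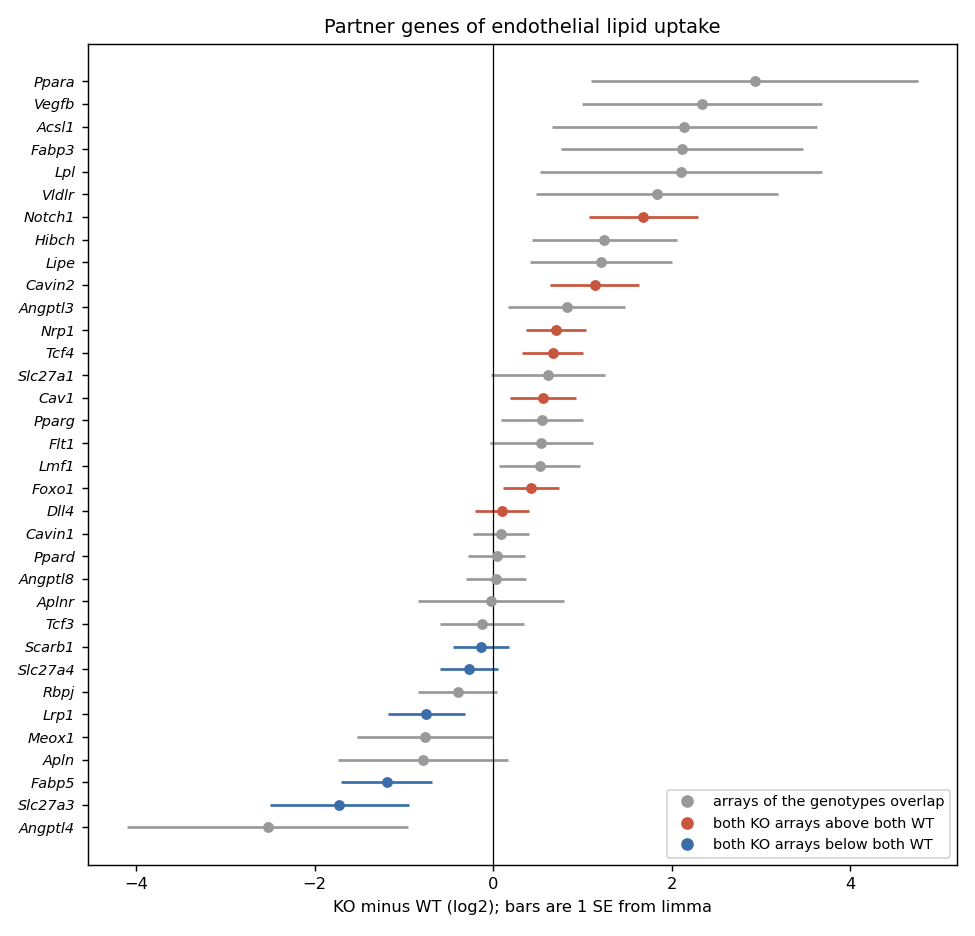
KO minus WT (log2, points) with 1 SE from limma (bars) for the 34 tested partner genes of lipid uptake, coloured by whether the arrays of the genotypes overlap. Red points, 7 genes from Dll4 to Notch1, lie right of 0 and blue points, 5 genes from Slc27a3 to Scarb1, lie left of it.

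The array profiles of the members were compared pair by pair. Aqp1 and Car4, and likewise Fabp4 and Gpihbp1, had the closest array profiles, with a Euclidean distance of 0.35 each over 4 arrays after centring each gene on its mean. Tcf15 and Rgcc were the farthest apart, at 2.05, and Meox2 and Tcf15 lay 1.49 apart despite their shared order. The genes nearest to the mean profile of the members were Samm50 (distance 0.03), Dio1 (0.03), Exoc3 (0.07), Rxrg (0.08) and Xk (0.08), where the median over all features was 1.53. Samm50, part of the mitochondrial outer membrane import machinery, stood at -0.06 and 1.44 in WT and at 1.37 and 1.96 in KO. Rxrg, a nuclear receptor that pairs with PPAR factors, stood at 0.39 and 1.80 against 1.84 and 2.46. Dio1 was well above background on 3 arrays. With 4 arrays such likeness is a description only.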

How the data were processed

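Cy3-labelled total RNA from hearts was hybridised to 1-colour Agilent mouse arrays, 2 WT and 2 KO. The deposited intensity is the processed signal, corrected for background and spatial trends array by array, per the file headers (Feature Extraction 11.0.1.1, whereas version 9.1 stands in the submitters' processing notes). Spot flags are other deposited values, used as given. The deposited value table holds log2 values with equal medians and upper quartiles in all columns, and lower quartiles of 2.874 to 2.881. The step behind this is not stated in the labels.

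Without control and outlier spots, the log2 signals of each probe were averaged. The 75th percentile of each array was subtracted. Probes with a value on every array and well above background on at least 2 were kept. Of 39429 probes, 27234 were named through RefSeq accessions (GRCm38.p6), and the brightest probe stood for its gene. No spot was saturated. KO was compared with WT by limma 3.58.1 in R 4.3.3 (lmFit, eBayes, two-sided, Benjamini-Hochberg over all features, threshold 0.05), and the fit was tested on simulated data. Members, lists and tests were chosen with earlier results of these data known. Named genes were the members, S1pr1, Cdh5, Pecam1, 9 partners chosen for their role, the 3 partners of smallest p in each direction and the 5 nearest profiles; Cyp4b1 and Plvap were added after their values were seen. 1 partner gene is not reported here. Sequences came from RefSeq promoter windows. Alternatives tried were median and quantile scaling, normexp, the deposited values, a looser and a tighter filter on dim probes, averaging the probes of a gene, the trend and robust options of eBayes, each array left out, the arrays numbered 3 alone, and scaling to the pan-endothelial mean. The number of arrays limits the precision.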

Additional observations from a re-analysis of the deposited data

How the results depend on the processing

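No paired analysis was possible because the genotypes share only the number 3. The arrays numbered 3 alone gave a difference of -0.15 between the members' per-array medians of centred levels, against 0.88 with all 4 arrays (the median of the members' own differences was -0.05 and 0.97), and differences of -0.03 for Fabp4, -0.64 for Cd36, -0.31 for Gpihbp1, -0.90 for Rgcc and -0.07 for Car4. Leaving out 1 array at a time, with the lone array of a genotype assumed to vary like the others, gave a range of -0.10 to 2.74 for Cd36, -0.08 to 1.28 for Gpihbp1 and -0.34 to 1.23 for Rgcc. The cause was not tested. Meox2 (0.65 to 1.34), Tcf15 (0.63 to 3.05) and Aqp1 (0.04 to 1.90) kept their direction under all 14 alternatives, and no member passed the threshold under the 13 that had a test (smallest adjusted p 0.132 in limma). The count of features called was 0 in each of these. At an unadjusted p under 0.05, 323 features were higher and 310 lower, against 252 and 405 with median scaling, 177 and 648 with no such filter on dim signals, 139 and 279 with the stricter filter, 270 and 397 with normexp, 160 and 1197 relative to the pan-endothelial mean, 191 and 189 with WT replicate 1 left out, 2853 and 1398 with WT replicate 3 left out, 336 and 978 with KO replicate 3 left out, and 68 and 99 with KO replicate 4 left out. Normexp used median signals, chosen after seeing the data since mean signals are not in the columns used here; with 1 slide and 1 scan, no block was fitted.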
